A study of Mus musculus with 36 samples.

Results

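The potassium channel genes are 94 protein-coding genes whose symbol begins with Kcn and a further letter, of 46893 genes and other features counted in the gastrocnemius, the large muscle of the calf. Membership follows symbol and biotype, and 4 Kcn features of another biotype were left out. The set was chosen with earlier results of these data known, and Kcnf1 was named in that choice. Poly(A) RNA was sequenced from 36 wild-type male C57BL/6 mice, in 6 groups of 6 with 1 library per mouse. The mice were 3 to 4 weeks old at the start and were followed for 12 weeks. NFD-C mice were sedentary and ate the AIN93G normal-fat diet, and HFD-C mice were sedentary and ate a high-fat diet. The other 4 groups ate the same high-fat diet and ran on a wheel. HFD-25% mice ran 2.1 km/day, HFD-50% mice 4.2 km/day, HFD-75% mice 6.3 km/day and unrestricted HFD-U mice 8.3 km/day. The design asks how diet (NFD-C against HFD-C) and running distance (each running group against HFD-C) bear on these genes, and HFD-C is the shared control of all 5 comparisons. No group of normal-fat runners is among the samples, so running was compared on the high-fat diet only.

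Potassium channels let potassium leave or enter a cell down its gradient, which sets the resting potential of a muscle fibre and ends each action potential. Voltage-gated channels open on depolarization, inward rectifiers hold the membrane near rest, channels opened by calcium or sodium link firing to ions inside the cell, and tandem-pore channels carry a background leak. Some pore subunits form no working channel by themselves and modify the gating of a partner, and auxiliary subunits sit beside the pore. In fast muscle the channel that closes on ATP, with Kcnj11 as its pore, couples the membrane to the energy state of the fibre.

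Most pore-forming members share a run of 5 codons that encodes the selectivity filter (threonine, any residue, glycine, an aromatic residue and glycine). It is shown here for the members that the results turn on, since it was found in pore subunits only. Its absence does not mark an auxiliary subunit. In the GENCODE coding sequences (GRCm38, the longest per gene, read in frame on the coding strand), 66 of 94 members held these codons, against 1.04% of 21862 protein-coding genes. They were present in 10 of 10 modifying pore subunits, 14 of 14 tandem-pore channels (11 of them with more than 1 copy), 14 of 15 inward rectifiers, 23 of 30 voltage-gated pore subunits, 5 of 8 calcium- or sodium-activated channels and 0 of 17 auxiliary subunits. A member without a match can carry a variant of the filter. Capitals mark the filter codons, printed 5′ to 3′ on the coding strand with 15 coding bases on each side.
Kcnf1, chr12:17175046-17175090, minus strand: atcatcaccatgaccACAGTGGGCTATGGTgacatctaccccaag
Kcng4, chr8:119625895-119625939, minus strand: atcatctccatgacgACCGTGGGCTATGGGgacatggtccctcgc
Kcnc1, chr7:46427958-46428002, plus strand: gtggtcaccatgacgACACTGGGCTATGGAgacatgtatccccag
Kcna7, chr7:45409446-45409490, plus strand: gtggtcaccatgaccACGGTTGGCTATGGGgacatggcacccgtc
Kcnj11, chr7:46099481-46099525, minus strand: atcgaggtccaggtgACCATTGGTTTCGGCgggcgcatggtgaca
Kcnf1, a modifying subunit, shared 13 of the 15 filter bases with Kcng4 and 13 with Kcnc1. How reads that match several genes of a family were counted is not given in the sources used here.

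Total counts ran from 13060090 to 27981702 per library, and 9833 to 30560 of them fell on the potassium channel genes. CPM of a gene below is the count scaled to the depth of its library (trimmed mean of M-values), and FPKM is that CPM per kilobase of the listed gene length. The share of counts on rRNA-linked features split the libraries by 1.5%: all 6 NFD-C and HFD-C mice 1 to 4 lay above it, and HFD-C mice 5 and 6 and all 24 runners below it, over a range of 0.404% to 3.80%. This split nearly follows the contrast of runners with HFD-C, so the calls of the genes named below are also given with the library set as a term of the fit. With that term, each running group is set against HFD-C mice 5 and 6 alone, and NFD-C against HFD-C mice 1 to 4. A call kept or lost under it thus rests on few HFD-C mice, and the split cannot be fully told apart from running. Of the 5 skeletal muscle markers, all but Mylpf (under the count minimum) were abundant, and their summed CPM spanned 43682 to 82044. The cause of the low Mylpf count was not tested, and it is not read here as low expression. The summed CPM of 6 slow fibre markers ranged widely within groups: NFD-C mice had 29.3 to 1557 and HFD-C mice 97.2 to 2059.9. Among the runners it went from 451 to 3249.8 in HFD-50%, with 106 to 2518 at the shortest distance, 327 to 1609.6 for HFD-75% and 113 to 1386 for HFD-U, and 0 of 6 were called in any comparison. The part of fibre type in the values below was not tested. In whole muscle, fewer cells of a type and less RNA per cell cannot be told apart. Nothing says that mice with the same number shared a litter or cage.

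The potassium channel RNA of this muscle came from few genes. Of the 94 members, 87 had at least 1 count and 7 had none in any library, where 3 counts over the 624816308 counts of the series allow up to 0.00480 CPM before scaling (counting error only). Kcna7, a voltage-gated pore subunit found in skeletal muscle and heart, was the most abundant per length with a mean level of 56.1 FPKM over the 36 mice. Kcnj11, the pore of the ATP-sensitive channel, followed with 30.03 FPKM, and the pair held 52.7% of the summed member FPKM. The 10 most abundant held 88.0%. Below the first pair, these included Kcnj2 (9.79 FPKM), Kcnj12 (8.02 FPKM), Kcng4 (7.62 FPKM), Kcnj8 (6.92 FPKM), Kcnc1 (6.84 FPKM), Kcnc4 (6.46 FPKM) and Kcnf1 (5.07 FPKM). By class, voltage-gated pore subunits made up 51.5% of the summed FPKM, inward rectifiers 33.6%, modifying pore subunits 7.98%, calcium- or sodium-activated channels 4.48%, auxiliary subunits 1.64% and tandem-pore channels 0.857%. In all, 14 members reached 1 FPKM and 55 lay under 0.1 FPKM.

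**Figure D1:**
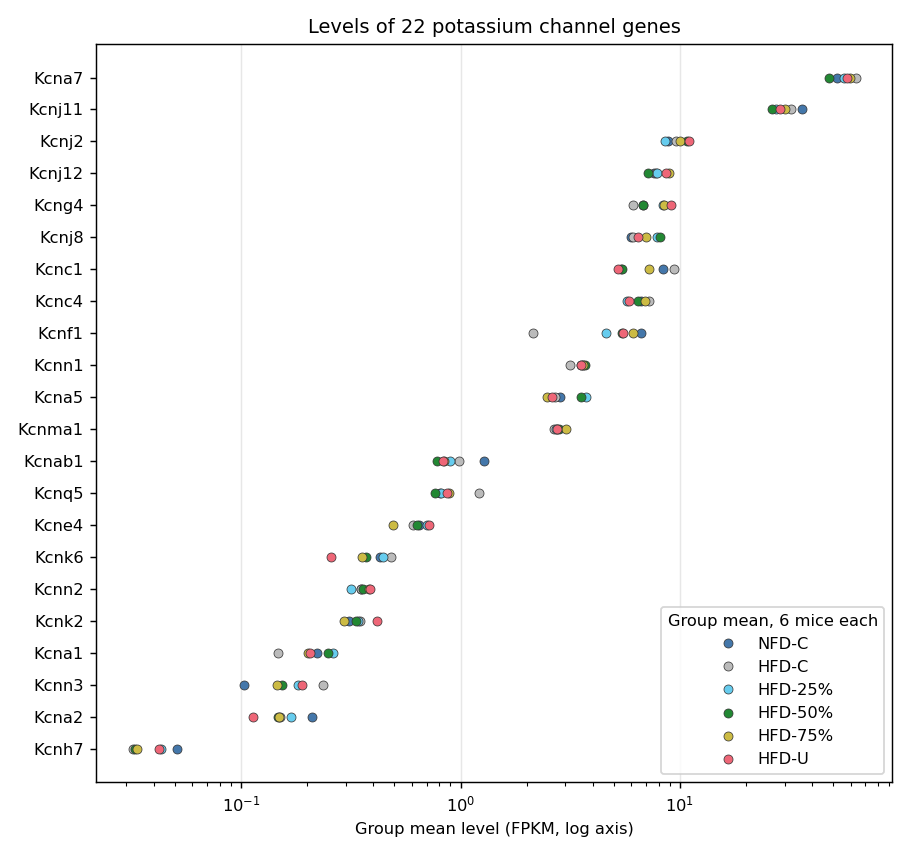
Mean level (FPKM, log axis) of 22 potassium channel genes above the count minimum, with 1 point per group of 6 mice. Kcna7 and Kcnj11 stand above the rest in all 6 groups, and the HFD-C point of Kcnf1 (2.14 FPKM) lies to the left of its other 5 points (4.62 to 6.64 FPKM).

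A minimum mean count of 25 left 25 members tested in at least 1 fit and 23 in every fit. Here "called" means an unadjusted p of at most 0.05 in edgeR's quasi-likelihood test, the threshold of the study. Between the diets, 2 of 25 members were called, Kcnf1 higher and Kcnq5 lower in NFD-C, against 4.12% of all 12247 genes tested (1.98% higher and 2.14% lower). In HFD-25%, 5 of 24 were called, 2 higher (Kcng4, Kcnf1) and 3 lower (Kcnc1, Kcnc4, Kcnq5), against 6.98% of all genes (3.4% higher, 3.58% lower). In HFD-50%, 5 of 24 were called, 2 higher (Kcnf1 among them) and 3 lower (Kcnc1 and Kcnq5 among them), against 10.7% of all genes (5.8% higher, 4.89% lower). In HFD-75%, 3 of 24 were called, 2 higher (Kcng4, Kcnf1) and 1 lower, against 5.47% of all genes (2.31% higher, 3.16% lower). In HFD-U, 6 of 24 were called, 2 higher (Kcng4, Kcnf1) and 4 lower (Kcnc1, Kcnq5 and Kcnk6 among them), against 5.46% of all genes (2.15% higher, 3.31% lower). These comparisons share the HFD-C mice, so a gene that returns in several of them is not independent evidence each time.

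After Benjamini-Hochberg adjustment over all genes, edgeR called 0 members in each of the 5 comparisons. The share of all genes that passed was 0.0082% for HFD-25% and 0% elsewhere. DESeq2, run as an alternative, passed 2 members after adjustment for HFD-U (Kcnc1, Kcnf1), 2 for HFD-50% (Kcnf1 among them), 1 for HFD-25% (Kcnc1) and 0 for NFD-C and HFD-75%. Of all genes with an adjusted p, DESeq2 passed 0.233% for HFD-U, 1.32% for HFD-50%, 0.361% for HFD-25%, 0.0163% for NFD-C and 0.331% for HFD-75%. Along the running distance over the 30 high-fat mice (a linear and a quadratic term tested jointly), 4 of 23 members were called (Kcnc1, Kcnf1 and Kcnk6 among them), against 12.2% of all genes. With adjustment 0 members and 0.683% of all genes passed there in edgeR, and DESeq2 passed 2 members and 2.05% of all genes. With the library set term, Kcnf1 (unadjusted p = 0.0398, adjusted p = 0.407) and Kcnk6 (unadjusted p = 0.0251, adjusted p = 0.353) were still called along the distance in edgeR. Kcnc1 was not (unadjusted p = 0.916 in edgeR). Across the 6 groups jointly, 5 of 23 were called (Kcnc1, Kcnf1 and Kcnk6 among them), also against 12.2% of all genes. With adjustment 1 member and 1.45% of all genes passed in that fit in edgeR. Adding the library set term there left Kcnf1 called (adjusted p = 0.304 in edgeR), while Kcnc1 and Kcnk6 lost their calls. The median log2 fold change over the tested members lay between -0.07 and 0.05 in the 5 comparisons, beside -0.01 to 0.01 over all genes.

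**Figure D2:**
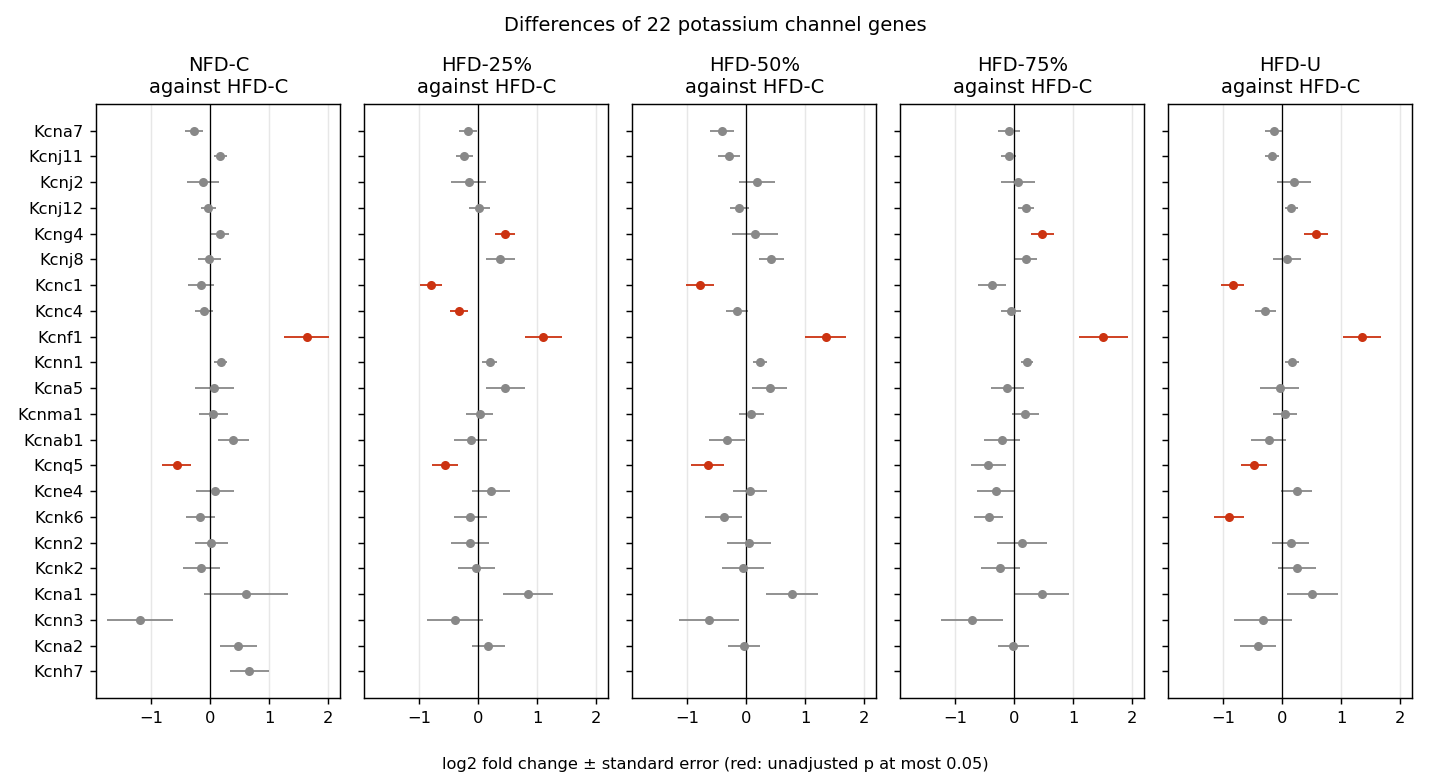
log2 fold change against HFD-C with its standard error for the same 22 potassium channel genes, ordered by level, in the 5 comparisons (6 mice per group); red marks an unadjusted p of at most 0.05. Kcnf1 is red and to the right of 0 in all 5 panels, and each other gene shown is red in at most 4 panels.

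Kcnf1 had the largest log2 fold change of the tested members in each of the 5 comparisons, and it was higher in each. It encodes a silent pore subunit that forms no channel alone and modifies channels made by a partner subunit. The gene is listed on chromosome 12 from 17222101 to 17226889 (minus strand, 4789 bases, without an intron), in coordinates whose chromosome accessions are those of GRCm39. HFD-C mice 1 to 6 had 6.44, 21.2, 5.01, 7.95, 14.1 and 6.93 CPM, and NFD-C mice had 30.3, 9.70, 49.4, 47.8, 32.9 and 20.7 CPM. Thus 4 of 6 NFD-C mice lay above every HFD-C mouse, and the groups overlapped through NFD-C mouse 2 and HFD-C mouse 2. HFD-25% mice had 16.3, 25.3, 19.6, 29.8, 26.9 and 14.9 CPM, and HFD-50% mice 30.6, 41.1, 31.8, 14.4, 26.1 and 13.02 CPM. HFD-75% mice had 12.2, 67.3, 14.2, 22.9, 30.4 and 27.8 CPM, and HFD-U mice 18.3, 22.2, 43.1, 23.4, 29.3 and 21.0 CPM. All 24 runners and all 6 NFD-C mice lay above the HFD-C median of 7.44 CPM.

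The mean of Kcnf1 was 31.8 ± 15.4 CPM (SD, n = 6 in each group) in NFD-C, 29.1 ± 20.1 for HFD-75%, 26.2 ± 9.05 for HFD-U, 26.1 ± 10.8 for HFD-50%, 22.1 ± 6.07 for HFD-25% and 10.3 ± 6.21 for HFD-C. In that order, each neighbouring pair down to HFD-25% differed by less than the SDs, and the last step, to HFD-C, was wider than both SDs. Against HFD-C, the log2 fold change was 1.64 ± 0.39 (SE) in NFD-C, where edgeR gave an unadjusted p of 0.000678 and an adjusted p of 0.833. Among the runners it was 1.52 ± 0.42 (HFD-75%), 1.36 ± 0.32 (HFD-U), 1.35 ± 0.35 (HFD-50%) and 1.11 ± 0.31 (HFD-25%), with adjusted p from 0.169 to 0.467 in edgeR. The fitted level was 3.11 times that of HFD-C in NFD-C and 2.16 to 2.86 times in the running groups. Kcnf1 was called in each comparison under all 6 alternatives, the library set term included, and without any 1 mouse. Under that term the running groups are set against HFD-C mice 5 and 6 alone (14.1 and 6.93 CPM). The distance response gave an adjusted p of 0.0556 in edgeR, and of 0.407 with the library set term. In DESeq2 the adjusted p was 0.0165 in HFD-50% and 0.0106 in HFD-U. Over the 6 alternatives the adjusted p ranged from 0.0165 to 0.413 in HFD-50%, from 0.0106 to 0.632 in HFD-U and from 0.0106 to 0.629 in HFD-75%. The lowest value in HFD-75% came from edgeR with the mouse number as a block, although same-numbered mice were not taken as paired there. Without HFD-75% mouse 2, the highest of all 36, the HFD-75% value was 1.07. No other listed feature overlaps the gene.

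**Figure D3:**
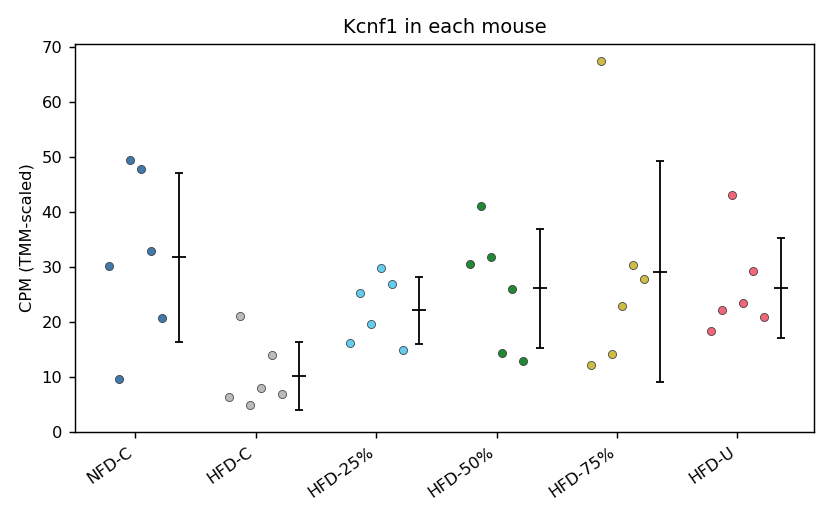
Kcnf1 CPM in each of the 36 mice by group (points in the order of mouse number), with the mean and SD beside them. HFD-C mice lie between 5.01 and 21.2 CPM, and HFD-75% mouse 2 at 67.3 CPM is the highest point.

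The promoters of Kcnf1 and Kcnc1 are given because Kcnf1 was called higher in all 5 comparisons and Kcnc1 was a member whose level in 2 running groups lay below every HFD-C mouse. RefSeq promoter windows (GRCm38.p6) were matched by gene ID for 69 of 94 members. Kcnk6 had no entry. Only the 250 bases before the start are printed, on the gene's strand, with capitals for an E-box (CANNTG) or a GC box (GGGCGG) read on both strands.
Kcnf1, chr12:17176889-17177138, minus strand: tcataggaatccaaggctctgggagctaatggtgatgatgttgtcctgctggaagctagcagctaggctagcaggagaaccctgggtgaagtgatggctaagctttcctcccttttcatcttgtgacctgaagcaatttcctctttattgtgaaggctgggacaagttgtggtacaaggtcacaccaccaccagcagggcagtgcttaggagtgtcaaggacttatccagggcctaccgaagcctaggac
Kcnc1, chr7:46396218-46396467, plus strand: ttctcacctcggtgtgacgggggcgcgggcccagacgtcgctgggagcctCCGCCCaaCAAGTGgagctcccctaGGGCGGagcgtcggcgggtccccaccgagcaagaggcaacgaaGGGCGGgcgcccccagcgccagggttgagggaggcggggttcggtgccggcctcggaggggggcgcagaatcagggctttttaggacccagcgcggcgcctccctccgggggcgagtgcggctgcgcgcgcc
The Kcnf1 window held neither motif and had 51.2% G and C. The Kcnc1 window had 74.4% G and C, with 3 GC boxes and 1 E-box that do not overlap. Of all 32851 promoter windows of this length, 66.2% held an E-box and 32.7% a GC box, and of the 94 windows of member genes 67% and 44.7% did. A TATA box (TATAAA) was in neither window and in 12.4% of all windows. A match is a description of these letters only.

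Kcng4 encodes the other well-expressed modifying subunit. HFD-C mice spanned 21.3 to 37.5 CPM with a median of 34.4 CPM. HFD-U mice spanned 25.6 to 70.3 CPM (median 50.0), HFD-75% mice 30.7 to 66.5 CPM (median 41.6) and HFD-25% mice 36.2 to 69.4 CPM (median 40.9). The ranges overlapped with HFD-C in each case, although 4, 4 and 5 of the 6 mice exceeded the highest HFD-C value. Fitted log2 fold changes were 0.57 ± 0.20 (HFD-U), 0.47 ± 0.19 (HFD-75%) and 0.46 ± 0.17 (HFD-25%), with adjusted p from 0.591 to 0.847 in edgeR. With the library set term they were 0.41, 0.31 and 0.30 and none was called. In HFD-25% the value without mouse 1 was 0.29 and was still called, and in HFD-75% the call was lost without HFD-C mouse 4 or without HFD-75% mouse 1 (0.33) or 6, and with mice 2 to 6 alone. In HFD-50%, 5 mice lay at 41.8 to 44.2 CPM and mouse 4 at 2.95 CPM, and Kcng4 was not called (log2 fold change 0.15 ± 0.39). In that mouse Kcna7, too, was the lowest of all 36 at 83.6 CPM. Its fast 2B markers (49851 CPM) and skeletal muscle markers (49898 CPM) had the lowest sums of the group, its nerve markers the highest (130.2 CPM), and its slow fibre markers (973 CPM) lay inside the group's range. Their part in the low value was not tested. A noncoding feature on the same strand, Gm46055, overlaps Kcng4 with a mean of 42.6 counts beside 700.0 for Kcng4, so the assignment of their shared reads is uncertain.

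The Kcnc family makes channels that open and close fast and so allow brief action potentials. Kcnc1 spanned 71.2 to 149 CPM in HFD-C (median 77.67) and 60.7 to 124 CPM in NFD-C (median 70.0). HFD-25% mice spanned 39.4 to 65.6 CPM (median 52.0) and HFD-U mice 32.0 to 63.0 CPM (median 55.8), so that all 6 mice of both groups lay below every HFD-C mouse. How many of all genes separate in this way was not counted, so the separation cannot be judged against them. HFD-50% mice spanned 34.96 to 97.8 CPM (median 47.6) and HFD-75% mice 52.6 to 134 CPM (median 61.4), and in both groups mouse 1 alone overlapped with HFD-C. Mouse 1 had the highest Kcnc1 level of its group in all 6 groups. Relative to HFD-C, Kcnc1 fell by 0.84 ± 0.20 on the log2 scale in HFD-U, by 0.80 ± 0.19 in HFD-25% and by 0.79 ± 0.24 in HFD-50% (1.73 to 1.79 times lower), with adjusted p of 0.322, 0.298 and 0.244 in edgeR. In HFD-75% it was -0.38 ± 0.24 and was not called (adjusted p = 0.999 in edgeR), nor was the diet difference of -0.16 ± 0.22. Whether HFD-75% differs from the other running groups was not tested.

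With only mice 2 to 6 of each group, added after the values were seen, Kcnc1 was also called in HFD-75%, and the value was -0.72 in HFD-U, -0.68 in HFD-25% and -0.86 in HFD-50%. With the library set term, Kcnc1 lost its call in HFD-25% (-0.50) and HFD-50% (-0.50) and kept it in HFD-U (-0.55). Same-numbered mice deviated together in HFD-U (correlation over 0.1 in all 6 pairs), and with the mouse number as a block the adjusted p of Kcnc1 there was 0.0376 in edgeR. No label gives this pairing, which was inferred from these same data, and the highest correlation (0.515) was that of the mice numbered 1. The adjusted p under the block is therefore no support beyond the unpaired fit, which gave 0.322 in edgeR. DESeq2 gave an adjusted p of 0.0248 in HFD-25%, 0.0812 in HFD-50% and 0.0198 in HFD-U. The 6 alternatives gave adjusted p values between 0.0248 and 0.511 for HFD-25% and between 0.0198 and 0.606 for HFD-U.

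Kcnc4, a related channel with about the level of Kcnc1 per length, was lower in HFD-25% at 38.4 to 56.9 CPM (median 47.0) than in HFD-C at 48.0 to 92.7 CPM (median 57.4). The log2 fold change was -0.33 ± 0.16 (adjusted p = 0.715 in edgeR). The call was lost under 4 of 6 alternatives and without any of HFD-C mice 1, 3, 5 and 6 or HFD-25% mice 1, 4, 5 and 6, and the value without HFD-C mouse 6 was -0.17. It was -0.66 and called when the library set term was added, where HFD-25% is set against HFD-C mice 5 and 6 alone (59.3 and 92.7 CPM). Kcnc4 was not called in the other 4 comparisons.

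**Figure D4:**
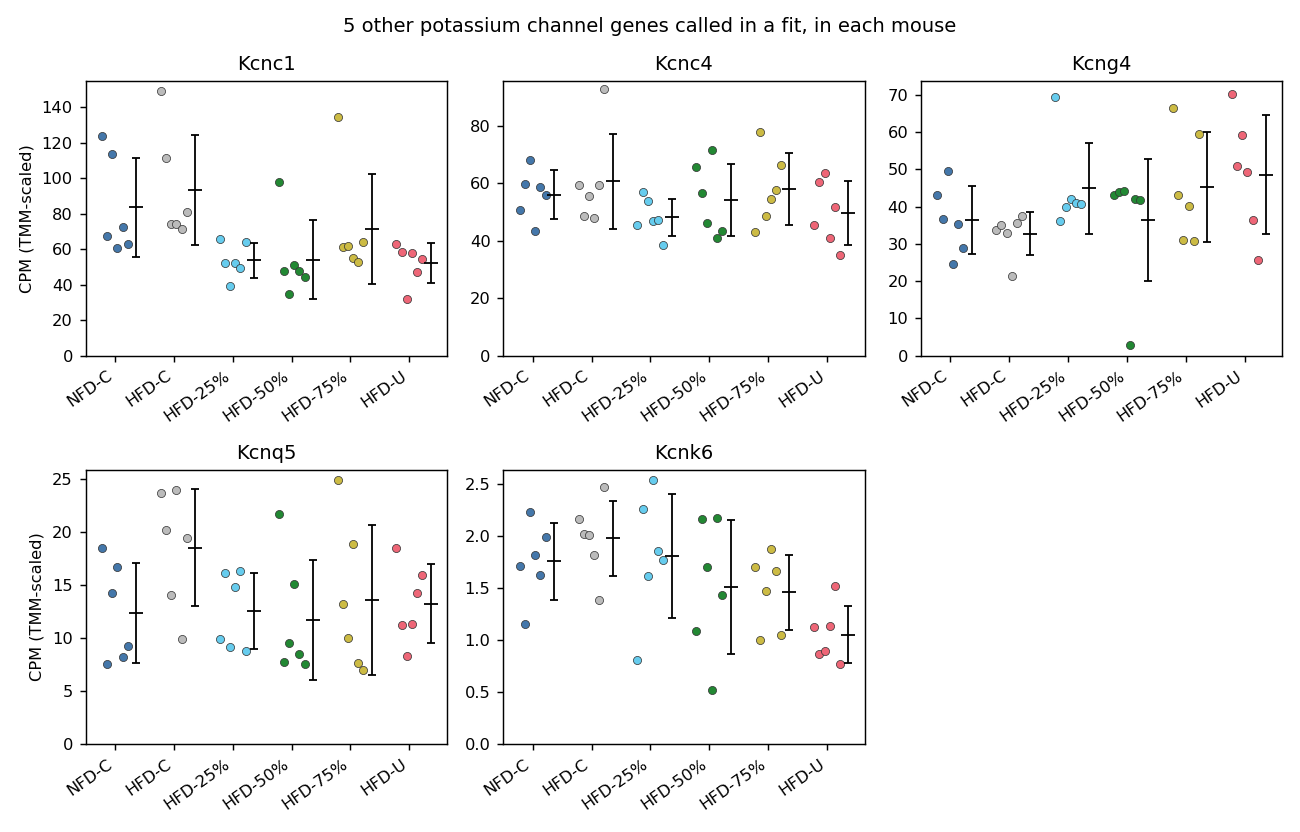
CPM of Kcnc1, Kcnc4, Kcng4, Kcnq5 and Kcnk6 in each mouse by group (points in the order of mouse number), with the mean and SD beside them. Kcnc1 of all HFD-25% and HFD-U mice lies below every HFD-C mouse, and 1 HFD-50% mouse has 2.95 CPM of Kcng4.

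Kcnq5 encodes a slowly activating channel that opens near the resting potential, and it had a higher mean in HFD-C than in any other group. HFD-C mice spanned 9.94 to 23.9 CPM with a median of 19.8, NFD-C mice 7.54 to 18.5 (median 11.7) and HFD-25% mice 8.83 to 16.3 (median 12.4). HFD-50% mice spanned 7.58 to 21.7 (median 9.04), HFD-75% mice 6.95 to 24.9 (median 11.6) and HFD-U mice 8.28 to 18.5 (median 12.8). All groups overlapped with HFD-C. The called differences were -0.57 ± 0.25 on the log2 scale in NFD-C, -0.66 ± 0.28 in HFD-50%, -0.57 ± 0.22 in HFD-25% and -0.48 ± 0.22 in HFD-U, while the HFD-75% value of -0.44 ± 0.30 was not called. The adjusted p ran from 0.411 to 0.9996 in edgeR over the 4 called comparisons. With the library set term the call ended in all 3 running groups, at -0.15 (HFD-U), -0.23 (HFD-25%) and -0.32 (HFD-50%), but not in NFD-C (-0.71).

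These Kcnq5 calls also rested on single mice. The NFD-C call was lost without NFD-C mouse 2, 5 or 6 or HFD-C mouse 1, 2 or 4. The HFD-25% call was lost without HFD-C mouse 1 or 4 or HFD-25% mouse 1, 3 or 6, and with mice 2 to 6 alone (-0.42), and the HFD-50% call without HFD-C mouse 1, 2 or 4 or HFD-50% mouse 2, 3, 5 or 6. In HFD-U it was lost without HFD-C mouse 1, 2, 4 or 6 or HFD-U mouse 2, 3, 4 or 5.

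Kcna7, the most abundant member, was not called in any comparison. HFD-C mice spanned 173 to 300.1 CPM with a median of 214, and NFD-C mice 137 to 255 CPM with a median of 173. HFD-50% mice spanned 83.6 to 228 CPM (median 169.8). The log2 fold change was -0.41 ± 0.20 in HFD-50% (adjusted p = 0.478 in edgeR), -0.28 ± 0.16 in NFD-C and -0.18 ± 0.16 to -0.09 ± 0.18 in the other 3 groups. In each of the 6 groups mouse 1 had the highest Kcna7 level. Among the other voltage-gated subunits above the count minimum, Kcna5 and Kcna1 had differences of -0.12 to 0.46 and 0.47 to 0.85 on the log2 scale without a call, and Kcna2 -0.41 to 0.48. Kcnh7, tested in NFD-C alone, had 0.67 ± 0.33.

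No inward rectifier was called in any of the 5 comparisons. Kcnj11 spanned 88.8 to 133 CPM in HFD-C, 109.8 to 132 CPM in NFD-C and 54.1 to 134 CPM over the 24 runners. Its log2 fold change was 0.17 ± 0.11 in NFD-C, and in the running groups it ranged from -0.29 ± 0.18 in HFD-50% to -0.09 ± 0.13 in HFD-75%. Across the 6 groups its unadjusted p was just over the threshold, with an adjusted p of 0.410 in edgeR. Kcnj2 and Kcnj12, the classical inward rectifiers of the muscle membrane, had log2 fold changes of -0.17 to 0.20 and -0.12 to 0.21. Kcnj8, the ATP-sensitive pore of vascular smooth muscle, averaged 15.5 ± 5.41 CPM in HFD-C and 20.7 ± 4.94 in HFD-50% (log2 fold change 0.42 ± 0.21, adjusted p = 0.491 in edgeR). Smooth muscle and pericyte markers summed to 206 to 478 CPM in HFD-C and 314 to 580 CPM in HFD-50%, with Pdgfrb, a pericyte receptor, called higher as 1 of 5 tested. Adding the library set term gave a call of Kcnj8 in HFD-25%, HFD-50% and HFD-75%. These calls are set against HFD-C mice 5 and 6 alone, which had the lowest levels of their group (10.4 and 12.4 CPM). The part of these cells in the Kcnj8 values was not tested.

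Among the channels opened by calcium, Kcnn1 was the most abundant per length. It averaged 18.1 ± 1.97 CPM in HFD-C and 20.3 ± 2.88 to 21.2 ± 2.78 CPM in the other 5 groups, with log2 fold changes of 0.17 to 0.23 and no call. Kcnma1, the large-conductance channel gated by both calcium and voltage, had log2 differences of 0.02 to 0.19, and Kcnn2 of -0.14 to 0.15. Kcnn3, which is raised in muscle that has lost its nerve, averaged 0.786 ± 0.648 CPM in NFD-C and 1.79 ± 1.15 CPM in HFD-C (log2 fold change -1.19 ± 0.56, adjusted p = 0.9996 in edgeR), just short of a call.

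Kcnk6, a tandem-pore leak channel, was lower in HFD-U. HFD-U mice spanned 0.771 to 1.52 CPM (median 1.01) and HFD-C mice 1.39 to 2.47 CPM (median 2.01), and 5 of 6 HFD-U mice lay below every HFD-C mouse. The log2 fold change was -0.91 ± 0.26 (1.87 times lower, adjusted p = 0.552 in edgeR), and it was called under all 5 alternatives in which it was tested and without any 1 mouse in the 11 fits that kept it. Group means fell in order of distance, from 1.98 ± 0.36 CPM (HFD-C) to 1.80 ± 0.60 (HFD-25%), 1.51 ± 0.64 (HFD-50%), 1.46 ± 0.36 (HFD-75%) and 1.05 ± 0.27 (HFD-U), though each step up to HFD-75% was narrower than the SDs, and the step from HFD-75% to HFD-U was wider than both. The distance response had an adjusted p of 0.201 in edgeR, and of 0.353 with the library set term. The mean count of Kcnk6 over all libraries was 27.8, near the minimum of 25.

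Of the other tandem-pore channels only Kcnk2 was tested, with log2 differences of -0.24 to 0.25 and no call. A pseudogene on its strand, Pdcd5-ps, overlaps it with a mean of 463.8 counts beside 30.4, so its counts are uncertain.

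Auxiliary subunits gave no call. Kcnab1, a cytoplasmic subunit that speeds inactivation, averaged 5.87 ± 1.33 CPM in NFD-C, 4.53 ± 2.02 in HFD-C and 3.59 ± 1.12 to 4.11 ± 1.23 in the running groups. Its log2 fold change was 0.39 ± 0.26 in NFD-C and -0.32 ± 0.31 to -0.13 ± 0.28 in the runners. Kcnab1 was called once the library set term was added in NFD-C, HFD-50% and HFD-U. The running groups are then set against HFD-C mice 5 and 6 alone, which had the highest levels of their group (4.76 and 8.31 CPM). Kcne4, an auxiliary subunit of the KCNE family, stayed within -0.31 to 0.24.

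Other genes of membrane excitability were taken as a list of 27 partners, of which 18 to 20 were tested. None was called in NFD-C or HFD-75%. In HFD-25%, 2 of 20 were called, Hcn4 (-1.27 ± 0.41) and Lrrc38 (-0.54 ± 0.21), both lower. In HFD-50%, 4 of 19 were called, all lower: Scn4a (-0.34 ± 0.16), the sodium channel of the muscle action potential, Atp1b2 (-0.47 ± 0.21), a subunit of the sodium pump, Hcn2 (-0.89 ± 0.38) and Lrrc38 (-0.70 ± 0.29), an auxiliary subunit of the channel that Kcnma1 forms. In HFD-U, Hcn4 (-1.53 ± 0.44) was the 1 of 20 called. Hcn2 and Hcn4 make channels that open on hyperpolarization. These values are log2 fold changes, and none passed after adjustment. The shares of all genes called are those given above for each comparison. Abcc9 and Abcc8, which pair with Kcnj11, were not called.

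Some marker lists of other cell types held a larger share of calls than all genes did, though each list is short. Adipocyte markers were called lower for 3 of 4 tested in HFD-U, against 3.31% of all genes. Immune markers were called lower for 2 of 2 tested in HFD-75%, against 3.16%. Endothelial markers were called higher for 2 of 6 in HFD-25% and 2 of 6 in HFD-50%, against 3.4% and 5.8% of all genes. Schwann cell and nerve markers gave 1 call of 5 (Prx, lower in HFD-U). Single markers were also called lower: Lep in HFD-25%, Cd68 in NFD-C and HFD-U, Hba-a2 of blood in HFD-75% and HFD-U, Pvalb of fast fibres in HFD-50%, and Myh3 (NFD-C) and Myog (HFD-U) of immature or denervated muscle. Pdgfrb was called higher in HFD-25% as well. Their part in the results was not tested.

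The summed CPM of all 94 members averaged 830.1 ± 112 for NFD-C, 852 ± 139 for HFD-C, 791 ± 86.3 for HFD-25%, 765 ± 119 for HFD-50%, 848 ± 148 for HFD-75% and 812 ± 56.5 for HFD-U (SD, n = 6). The groups differed by less than the SD of HFD-C. Mouse 1 had the highest sum in all 6 groups, from 925 CPM in HFD-U, where the others had 776 to 804, to 1130 CPM in HFD-75%, where the others had 750.3 to 891.

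**Figure D5:**
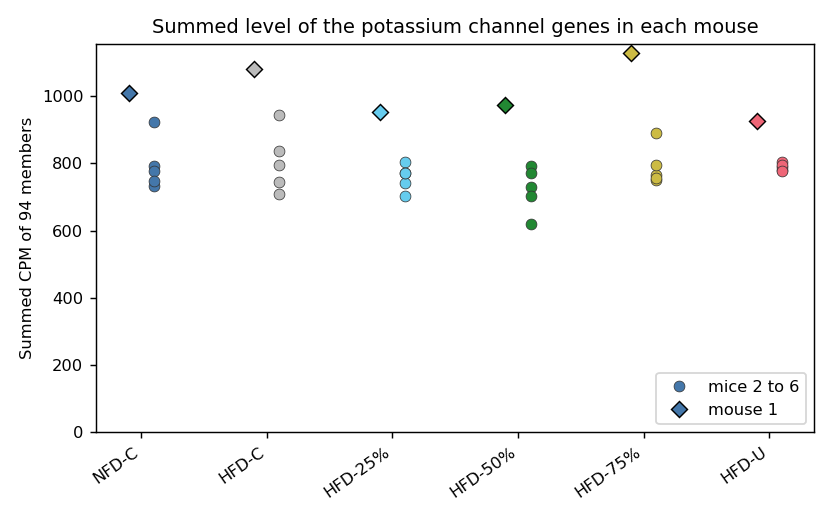
Summed CPM of the 94 potassium channel genes in each mouse by group, with a diamond for mouse 1 and circles for mice 2 to 6. The diamond is the highest point in all 6 groups, at 925 to 1130 CPM.

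The 69 members tested in no fit had mean counts of at most 20.1. Of these, 40 had counts in every group, 22 in some groups and 7 in none. They were tested only in the alternative without a minimum count. Depth limits their values, since 1 count is worth 0.0357 CPM before scaling in the deepest library and 0.0766 CPM in the shallowest.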

How the data were processed

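Gastrocnemius poly(A) RNA of 36 mice was sequenced, with 1 library per mouse. Gene counts were deposited by the authors as raw counts, made per the labels and the methods with Hisat2 2.0.5 and featureCounts 1.5.0-p3. The labels name mm10, while the chromosome accessions of the table are those of GRCm39. The strand setting and the treatment of multi-mapping reads are not given in the sources used here. Columns were matched to samples by their titles, and 0 were left unmatched. Features with a blank name (562) held at most 0.576% of the counts of a library and, having a gene ID, stayed in the fits.

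Each group was compared with HFD-C by edgeR 4.0.16 (R 4.3.3), with a quasi-likelihood F-test, TMM scaling, a minimum of 25 for the mean count in the fitted libraries and Benjamini-Hochberg adjustment over all genes. The distance response and the 6 groups were tested jointly. The threshold was an unadjusted p of at most 0.05. Total counts of 13060090 to 27981702 set the precision of low genes. Alternatives were DESeq2 1.42.0, no minimum count, RLE size factors, the mouse number as a block, a library set term (rRNA-linked share over 1.5%), each mouse left out, and mice 2 to 6 only, the last chosen after seeing the data. Same-numbered mice were taken as paired only in HFD-U, where all 6 correlations of their deviations with HFD-C were over 0.1 (0.122 to 0.515). The labels give no such pairing, and 4 of 6 HFD-C mice correlated best with the HFD-U mouse of their own number. p-values measure only the spread between these mice.

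Named with values were Kcnf1, the members past an adjusted p of 0.05, the 4 with the smallest unadjusted p in each direction of each fit, the 10 most abundant and the most abundant of each class. Results on 3 tested members are not reported here, although counts and sums include them. Other members are given by ranges or were named after their values were seen. The members and lists were chosen with earlier results of these data known. The intervals and floors cover counting error only. Sequences came from GENCODE (GRCm38) and RefSeq (GRCm38.p6).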

Additional observations from a re-analysis of the deposited data

Results flagged for a closer look

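Of 90 pairs of a group and a gene taken by the naming rule, 12 held a mouse that stood far from the other 5 by Dixon's test, in 8 of 15 genes. For independent, normally distributed values chance gives about 1 in 20. These pairs share the same mice, so the 12 cannot be set against that rate. The causes were not tested.

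Kcna7 had 335 CPM in HFD-75% mouse 1, where the others had 156 to 203. Kcnj11 had 129 CPM in HFD-U mouse 2, against 87.5 to 96.9. Kcng4 stood out in 3 groups, with 21.3 CPM in HFD-C mouse 4 (others 32.8 to 37.5), 69.4 CPM in HFD-25% mouse 1 (others 36.2 to 42.0) and 2.95 CPM in HFD-50% mouse 4 (others 41.8 to 44.2). The last of these had the widest gap of the 12, at 0.943 of the range.

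Kcnj8 had 25.9 CPM in HFD-C mouse 4, against 10.4 to 15.4. Kcnc1 had 97.8 CPM in HFD-50% mouse 1 (others 34.96 to 51.3) and 134 CPM in HFD-75% mouse 1 (others 52.6 to 64.1). Kcnc4 had 92.7 CPM in HFD-C mouse 6, against 48.0 to 59.5. Kcnf1 had 67.3 CPM in HFD-75% mouse 2, against 12.2 to 30.4. Kcnab1 was low in HFD-50% mouse 6 at 1.502 CPM (others 3.56 to 4.75) and in HFD-75% mouse 1 at 1.51 CPM (others 3.93 to 5.35).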

How the results depend on the processing

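The 21 called differences of members kept their direction in all 125 values under the alternatives and all 251 values with 1 mouse left out, and 108 and 211 of these stayed called. Of the 17 calls lost under alternatives, the library set term took 11. Without a minimum count, 80 to 87 members were tested, and the called ones numbered 9 (NFD-C), 15 (HFD-25%), 12 (HFD-50%), 10 (HFD-75%), 10 (HFD-U), 12 (distance response) and 15 (6 groups), where 8.59%, 9.18%, 11.1%, 8.28%, 8.67%, 19.9% and 17.4% of all genes were called in turn. With the mouse number as a replicate block they numbered 4 for NFD-C, 8 for HFD-25%, 9 for HFD-50%, 7 for HFD-75% and 7 for the distance response, against 6.94%, 8.28%, 14.1%, 6.89% and 17.6% of all genes. In those groups same-numbered mice were not taken as paired, since 3, 4, 5 and 1 of 6 correlations were over 0.1. Under this block the adjusted p was 0.0106 for Kcnf1 in HFD-75% and 0.0303 for Kcnc1 in HFD-50%. In HFD-U, where same-numbered mice were taken as paired, the block left 6 called, against 10.2% of all genes. Without a minimum count Kcnf1 had an adjusted p of 0.0458 in HFD-U. These adjusted p are edgeR's. With the library set term the counts were 4 (NFD-C), 3 (HFD-25%), 5 (HFD-50%), 2 (HFD-75%), 5 (HFD-U), 2 for the distance response and 2 over the 6 groups, against 4.43%, 12.3%, 11.2%, 8.98%, 11.9%, 11.5% and 9.74% of all genes. Where no other reason follows from the alternative itself, the cause was not tested.

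With 1 mouse left out, called members ranged from 1 (without NFD-C mouse 5 or 6 or HFD-C mouse 1, 2 or 4) to 4 (without HFD-C mouse 5 or 6) in NFD-C, from 3 (without HFD-25% mouse 6) to 6 in HFD-25%, from 4 to 9 (without HFD-50% mouse 1) in HFD-50% and from 2 to 5 (without HFD-75% mouse 1) in HFD-75%. The share of all genes called with 1 mouse left out was not kept, so these ranges cannot be set beside it and are not a result about the members. Kcnk6 fell under the count minimum with mice 2 to 6 only and gave no value there. Members under the count minimum are limited by depth.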

Other observations

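Some members below the count minimum are given here as values; they were chosen after their values were seen. CPM here comes from the summed counts and summed library totals of a group, without scaling. Kcnk13, a tandem-pore channel of the halothane-inhibited type, had 0 counts in all 6 HFD-C libraries, which allows up to 0.0260 CPM over the group (3 counts). It had 40 counts in 5 NFD-C libraries, 27 in 5 HFD-25% libraries, 17 in 5 HFD-50% libraries, 14 in 4 HFD-75% libraries and 27 in 5 HFD-U libraries. The group CPM was 13.6 times that floor in NFD-C and 5.18 times in HFD-75%, the lowest of the other groups. Kcnk13 was chosen with its 0 counts in HFD-C in view, so its excess over HFD-C follows from that choice. The floor covers counting error only and not the spread between mice. Of the members in no fit, 6 had 0 counts in exactly 1 group, which was HFD-C for 2 of them (Kcnk13 and Kcnj10) and NFD-C for 1, Kcnk3, with 53 counts in HFD-C. The share of all genes with 0 counts in a single group is not given here.

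Kcnh2, a voltage-gated channel known for its part in the repolarization of the heart, had 129 counts in HFD-C and 84 in NFD-C, and 81, 47, 39 and 38 counts from the shortest to the longest distance (1.12, 0.744, 0.773, 0.501, 0.375 and 0.403 CPM). Kcnv2, a modifying subunit, had 0.295 CPM in HFD-C and 0.646 to 1.02 CPM in the other 5 groups. Without a minimum count, Kcnh2 was called in HFD-50%, HFD-75% and HFD-U and Kcnv2 in HFD-25%, HFD-50% and HFD-75%, at an unadjusted p of at most 0.05 in edgeR, where 8.28% to 11.1% of all genes were called in these 4 comparisons.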
